A study of Mus musculus with 16 samples.

Results

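The comparison set the 6 libraries titled Flpo against the 5 titled GFP, which together make up 11 of the 16 liver libraries of the series. All 11 came from livers of mice on the C57/Bl6J strain background with the genotype given as J1 J2 lf/lf, and all mice were fed a high-fat diet (HFD). The series text describes the mice as hepatocyte-specific JNK spliceoform animals. It pairs GFP with the controls and FLPO with the 7b isoforms, and it pairs CRE with the 7a isoforms, which are represented by 5 further libraries used here only where a value is set beside them. The sources used here do not give the age of the mice, the vehicle that carried GFP, Cre or Flpo, or the fraction of hepatocytes recombined, and the controls are named for GFP and not for an inactive recombinase. The labels do not say whether each library is a separate animal. The p-values therefore measure only how these libraries vary, which may be technical. The library numbers in the titles run from 1 to 8 in GFP and from 22 to 27 in Flpo, so anything that followed that order cannot be told apart from the group. The question the design poses is how liver RNA differs between mice named for the 7b forms of JNK1 and JNK2 in hepatocytes and their controls.

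JNK1 and JNK2 are stress-activated protein kinases encoded by Mapk8 and Mapk9. They are switched on by upstream kinases, phosphorylate JUN and other transcription factors, and are known in the liver of obese mice for restraining insulin signalling and the PPARA and FGF21 programme of fatty acid use. Each gene carries a pair of mutually exclusive exons that encode part of the kinase domain, and the choice between them gives the isoforms named 7a and 7b and is known to affect which substrates are bound.

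These exons are shown because they are what the groups are named for, while the deposited values are summed over whole genes. Sequences are from GENCODE M21 transcripts on GRCm38, 5′ to 3′ on the gene's strand, and are named first and second in the order of transcription, since no source used here ties either one to the names 7a and 7b. Capitals mark the bases at which the exons of one gene differ. The Mapk8 exons lie at chr14:33390673-33390744 and chr14:33390242-33390313 on the minus strand, and the Mapk9 exons at chr11:49873836-49873907 and chr11:49874264-49874335 on the plus strand.
Mapk8 first exon: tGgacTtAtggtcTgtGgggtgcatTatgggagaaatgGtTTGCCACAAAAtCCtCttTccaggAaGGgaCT
Mapk8 second exon: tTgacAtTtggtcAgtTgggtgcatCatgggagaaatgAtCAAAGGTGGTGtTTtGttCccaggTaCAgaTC
Mapk9 first exon: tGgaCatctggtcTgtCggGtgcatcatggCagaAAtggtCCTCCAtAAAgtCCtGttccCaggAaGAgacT
Mapk9 second exon: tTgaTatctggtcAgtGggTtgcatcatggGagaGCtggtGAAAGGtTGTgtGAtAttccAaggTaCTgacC
Each exon is 72 bases long. The exons of Mapk8 differ at 27 bases (62.5% identity) and those of Mapk9 at 25 (65.3% identity). The first exons of the 2 genes share 59 of 72 bases (81.9%) and the second exons 57 (79.2%), so each exon is closer to its counterpart in the other gene than to its own partner.

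At the level of the whole gene, neither Mapk8 nor Mapk9 passed the test between Flpo and GFP. Values are given as CPM, that is, estimated counts scaled to the library total with a normalization factor. Mapk8 stood at 15.1, 8.12, 8.91, 12.8 and 13.7 CPM in GFP replicates 1 to 5, and at 12.5 to 14.6 CPM with a median of 13.5 in the Flpo libraries. Mapk9 stood at 61.7, 48.4, 23.4, 37.8 and 42.1 CPM in GFP and at 40.5 to 51.2 CPM with a median of 46.7 in Flpo. The Flpo values of both genes lay inside the range of the GFP libraries, which spread more widely. The log2 fold change, Flpo minus GFP, was 0.21 for Mapk8 (SE 0.16, 95% interval -0.13 to 0.54, edgeR quasi-likelihood test, adjusted p = 0.713) and 0.12 for Mapk9 (SE 0.17, -0.25 to 0.48, adjusted p = 0.858). The Mapk9 value turned to -0.04 without GFP replicate 3, which held the lowest level. A sum over the gene does not show which exon was used, so these values do not check the isoform named for a library. The 16 tested genes within 1 Mb of Mapk8 and the 30 within 1 Mb of Mapk9 included none that passed. Of these, 2 and 4 had an unadjusted p under 0.05, beside 9.73% of all genes. The smallest adjusted p values among these neighbours were 0.429 and 0.411.

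The liver transcriptome of the Flpo group lay close to that of the GFP group. Of 13905 tested genes, 4 (0.0288%) passed edgeR's quasi-likelihood test at an adjusted p under 0.05 (Benjamini-Hochberg), all of them lower in Flpo: Rec8, Pde9a, Smarcd1 and Gm19696. No gene passed as higher (0%). At an unadjusted p under 0.05 there were 1353 genes (9.73%), 645 higher (4.64%) and 708 lower (5.09%) in Flpo. All Flpo libraries lay above all GFP libraries in 94 genes (0.676%) and below them in 121 (0.87%). Other tools run on the same libraries called between 2 genes (limma-voom, 0 higher) and 71 (DESeq2, 25 higher and 46 lower). The count depended on single libraries: it was 0 without GFP replicate 1, GFP replicate 2, Flpo replicate 3, Flpo replicate 4 or Flpo replicate 6 (edgeR, with 1005 to 1220 genes at an unadjusted p under 0.05), 1 without GFP replicate 3, and 15 without GFP replicate 5 or without Flpo replicate 1.

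A missed threshold does not measure how small a difference is, so the intervals of the fold changes were counted as well. The 95% interval of the fold change lay within 2-fold in either direction for 10707 genes (77%) and within 1.5-fold for 7505 (54.0%). Precision was lowest for rare transcripts. Among genes of 10 to 100 CPM the interval lay within 2-fold for 5679 of 5872 (96.7%), and among genes of at least 100 CPM for 1169 of 1227 (95.3%). It did so for 3606 of 4697 genes (76.8%) between 1 and 10 CPM, where all 4 called genes lay, but for only 253 of 2109 (12%) under 1 CPM. For most of those rare transcripts a change of 2-fold was not bounded at this depth. The median absolute log2 fold change was 0.15 between Flpo and GFP. Fold changes beyond 2-fold stood in 345 genes (2.48%), and 238 of these were under 1 CPM. In the same fit the median absolute log2 fold change was 0.23 between Flpo and Cre and 0.22 between Cre and GFP, with 1906 (13.7%, 7.45% higher and 6.26% lower in Flpo) and 1328 (9.55%) genes called. The interval lay within 2-fold for 70.38% of genes between Flpo and Cre and 70.4% between Cre and GFP. This share thus told the comparisons apart much less than the count of called genes. The split between Flpo and Cre depended on the scaling, with 1810 higher and 454 lower with library totals alone and 2417 higher and 326 lower on log2(TPM + 1) with limma. These comparisons share the GFP or the Flpo libraries with the first, so their counts are not independent of it.

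**Figure D1:**
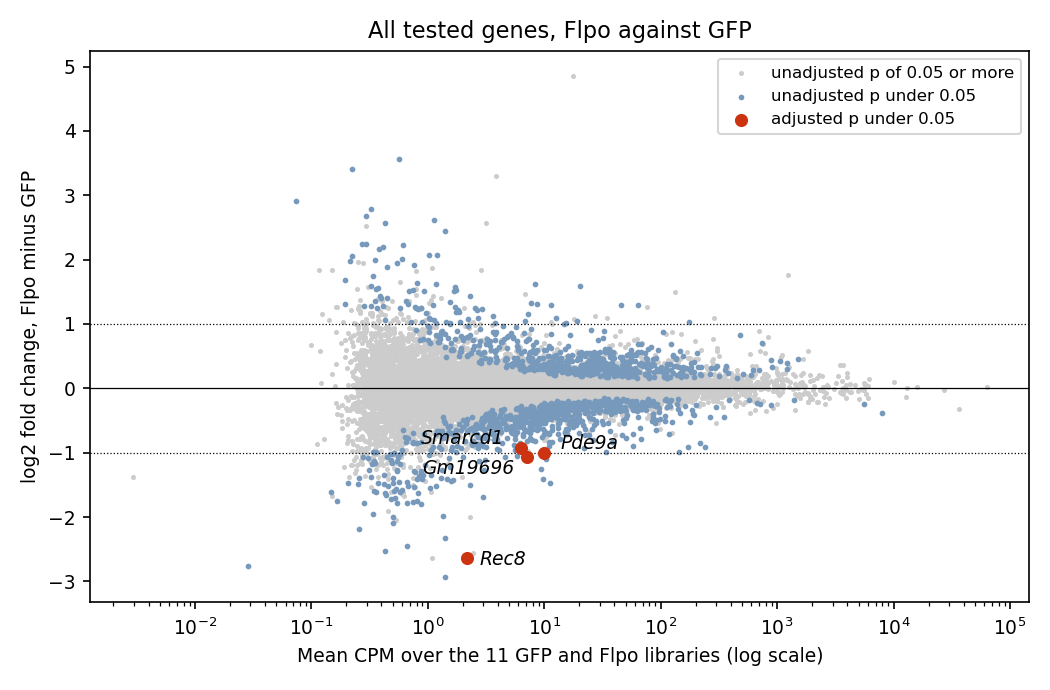
Log2 fold change, Flpo minus GFP, of each of the 13905 tested genes against its mean CPM over the 11 libraries on a log axis. Dotted lines mark 2-fold. Blue points have an unadjusted p under 0.05, and the 4 red points, Rec8, Pde9a, Smarcd1 and Gm19696, passed the adjusted test and lie below 0 between 1 and 10 CPM.

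The libraries did not separate cleanly by group. Over the 500 most variable genes of the 11 libraries, principal component 1 carried 15.96% of the variance, of which 27.3% lay between the groups. On it GFP replicates 1, 3, 4 and 5 fell within the range of the Flpo libraries, and Flpo replicates 1 and 2 within that of the GFP libraries. Principal component 4, with 10.3% of the variance, had the largest share between groups of the first 6, at 37.7%. Over 11796 genes of at least 1 CPM, the median share of variance between groups was 8.99%. The median SD within a group was 0.22 on the log2 scale in GFP and 0.21 in Flpo. Total estimated counts were 28315025 to 31249930 in GFP and 28549614 to 36043249 in Flpo, mitochondrial transcripts took 4.48% to 5.42% and 4.43% to 5.56%, and the female transcript Xist reached at most a count of 3.

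Rec8, a subunit of cohesin best known from meiosis, had the largest fall of the 4. It stood at 5.42, 4.67, 3.51, 4.53 and 1.72 CPM in GFP replicates 1 to 5, and at 0.340 to 1.02 CPM with a median of 0.542 in Flpo. The groups did not overlap, and GFP replicate 5 was the GFP library nearest to Flpo. The mean fell from 3.97 ± 1.43 CPM (SD, n = 5) to 0.634 ± 0.297 (n = 6), a log2 fold change of -2.64 (SE 0.37, 95% interval -3.41 to -1.87, adjusted p = 0.0153). The Cre libraries stood at 1.07 to 2.84 CPM, a range that holds GFP replicate 5, with a level lower than GFP (-1.23, SE 0.37, adjusted p = 0.0422) and higher than Flpo, where Flpo minus Cre was -1.42 (SE 0.37, adjusted p = 0.0154). Rec8 lies at chr14:55618037-55625395 on the plus strand of GRCm38.

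Rec8 was the 1 called gene among 12 tested genes of cohesin and the meiotic chromosome axis, beside 0.0288% of all genes. This list was drawn up with the call known, so the count does not bear on the family. The 10 members with no unadjusted p under 0.05 included the core subunits Smc1a (log2 fold change 0.06), Smc3 (-0.05) and Rad21 (0.01). Wapl, which releases cohesin from DNA, stood higher at 50.5 ± 8.21 CPM in GFP and 62.4 ± 3.61 in Flpo (0.30, SE 0.10, unadjusted p = 0.00524, adjusted p = 0.328). Of 22 genes on this list, 10 were too low to test, among them the meiotic genes Smc1b, Stag3, Sycp2 and Sycp3.

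Pde9a encodes a phosphodiesterase that breaks down cyclic GMP. It stood at 16.1, 16.5, 13.7, 10.7 and 11.1 CPM in GFP and at 5.24 to 8.93 CPM with a median of 6.69 in Flpo, with no overlap. The mean fell from 13.6 ± 2.70 to 6.76 ± 1.44 CPM (log2 fold change -1.01, SE 0.15, adjusted p = 0.0196). The 5 Cre libraries, at 11.1 to 13.8 CPM, lay within the GFP range (Cre minus GFP -0.12, SE 0.16, adjusted p = 0.709) and above every Flpo library (Flpo minus Cre -0.89, SE 0.15, adjusted p = 0.000900). Pde9a lies at chr17:31386210-31476310 on the plus strand. It was the 1 called gene among 26 phosphodiesterases and cyclases of cyclic nucleotides, a list drawn up with the call known, beside 0.0288% of all genes. Pde3b, the cyclic AMP phosphodiesterase that insulin activates, stood at 47.3 to 67.0 CPM in GFP and 68.2 to 91.0 in Flpo with no overlap, but did not pass (0.40, SE 0.12, adjusted p = 0.312). The adenylate cyclase gene Adcy6 had a log2 fold change of 0.32 (SE 0.12, adjusted p = 0.400).

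Smarcd1 encodes a SWI/SNF subunit, part of a complex that remodels chromatin, and is known in liver as a partner of factors which drive fatty acid oxidation genes. It stood at 9.73, 9.96, 8.98, 8.21 and 5.96 CPM in GFP and at 4.08 to 5.02 CPM with a median of 4.52 in Flpo. The groups did not overlap, GFP replicate 5 again lay closest to Flpo, and the Flpo libraries lay within 1 CPM of each other. The mean fell from 8.57 ± 1.61 to 4.52 ± 0.332 CPM (log2 fold change -0.92, SE 0.14, adjusted p = 0.0196). In Cre it stood at 6.32 to 9.70 CPM (Cre minus GFP -0.14, adjusted p = 0.621, and Flpo minus Cre -0.78, adjusted p = 0.00148). Smarcd1 lies at chr15:99702129-99713991 on the plus strand.

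The 25 tested SWI/SNF genes, a list also drawn up with the call known, had a median log2 fold change of -0.02. Smarcd1 was the 1 called, beside 0.0288% of all genes. At an unadjusted p under 0.05, beside 9.73% of all genes, stood 6 others, 3 higher and 3 lower. The paralogue Smarcd2 was among the higher ones, at 52.7 ± 9.54 CPM in GFP and 62.9 ± 4.64 in Flpo (0.25, SE 0.11, adjusted p = 0.449). So were the catalytic subunit gene Smarca2 (0.38, SE 0.13, adjusted p = 0.357) and Ss18 (0.26, SE 0.08, adjusted p = 0.357). The lower ones were Phf10 (-0.36), Smarce1 (-0.25) and Bcl7c (-0.50), with adjusted p values of 0.460, 0.471 and 0.471. None of these 6 passed.

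Gm19696 is annotated in RefSeq on GRCm38 as a long noncoding RNA at chr17:84134017-84156428. It stood at 10.1, 13.7, 11.2, 8.73 and 5.71 CPM in GFP and at 4.21 to 5.29 CPM with a median of 4.55 in Flpo, again without overlap. The mean fell from 9.88 ± 2.96 to 4.70 ± 0.460 CPM (log2 fold change -1.07, SE 0.17, adjusted p = 0.0196), while Cre stood at 7.26 to 9.05 CPM (Cre minus GFP -0.30, adjusted p = 0.316, and Flpo minus Cre -0.77, adjusted p = 0.00549). No use of strand is stated for the counts, so reads from overlapping genes cannot be told apart here. Per length, in the deposited TPM values, which are scaled for gene length, Gm19696 was the most abundant of the 4 in GFP at 19.6 ± 5.95 TPM, followed by Pde9a at 9.44 ± 2.07, Smarcd1 at 3.39 ± 0.727 and Rec8 at 2.46 ± 0.974. In Flpo the corresponding levels were 9.41 ± 0.602, 4.76 ± 1.03, 1.82 ± 0.176 and 0.388 ± 0.177 TPM.

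All 4 calls ended in the fits without GFP replicate 1, GFP replicate 2, Flpo replicate 3, Flpo replicate 4 or Flpo replicate 6, and their fold changes kept their sign. Without GFP replicate 1, for example, Rec8 stood at -2.50 (adjusted p = 0.0796), Pde9a at -0.94, Smarcd1 at -0.87 and Gm19696 at -1.07 (each adjusted p = 0.0901).

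**Figure D2:**
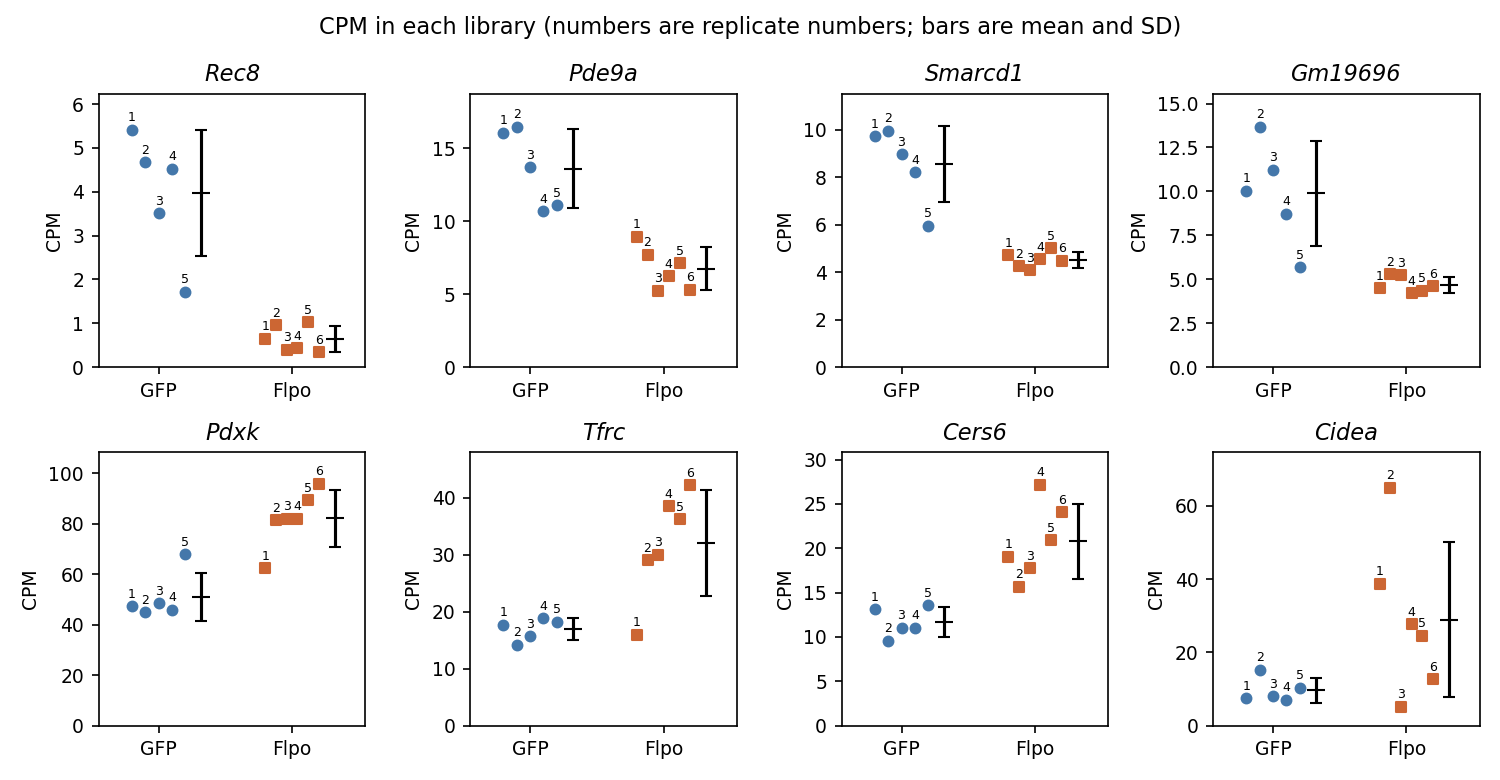
CPM in each GFP library (blue) and Flpo library (orange), with replicate numbers and, beside them, the mean and SD, for the 4 called genes (top row) and for Pdxk, Tfrc, Cers6 and Cidea (bottom row). The top row shows no overlap between the groups. In the bottom row, where no gene passed the test, single libraries such as GFP replicate 5 for Pdxk and Flpo replicate 1 for Tfrc overlap the other group, while the groups for Cers6 do not overlap.

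Just outside the threshold, most genes again stood lower in Flpo. At an adjusted p under 0.1 there were 12 genes, 10 lower and 2 higher, and under 0.2 there were 27, 18 lower and 9 higher. Both counts include the 4 called genes, all of them lower. None of the genes described in the next paragraphs passed at 0.05. Slc35f2, which encodes a solute carrier, had the largest difference among those lower, at 2.24 to 6.18 CPM in GFP and 0.700 to 2.04 in Flpo (-1.69, SE 0.31, adjusted p = 0.0718). The groups did not overlap, and levels in Cre, at 2.33 to 6.59 CPM, lay near those of GFP.

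Other genes near the threshold also stood lower in Flpo. Top1mt, the mitochondrial topoisomerase, stood at 20.9 to 25.4 CPM in GFP and 15.1 to 18.8 in Flpo (-0.47, SE 0.09, adjusted p = 0.0718). Sco2, needed to assemble cytochrome c oxidase, stood at 33.1 to 55.4 and 24.8 to 32.9 CPM (-0.67, SE 0.13, adjusted p = 0.0998). The groups did not overlap for either gene, though the gap for Sco2 was under 1 CPM. Orai3, a subunit of store-operated calcium channels (-0.43, adjusted p = 0.113), Psen2, a presenilin subunit of gamma-secretase (-0.53, adjusted p = 0.130), and Dtnb, a dystrobrevin (-0.50, adjusted p = 0.130), also had all Flpo libraries below all GFP libraries. The 30 tested genes of oxidative phosphorylation had a median log2 fold change of -0.02, and the interval of every one of the 30 lay within 2-fold.

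A few of the genes near the threshold had similar values in the Cre libraries, which share the GFP controls. Top1mt differed in Cre by -0.58 (adjusted p = 0.000677), Ggct, an enzyme of the gamma-glutamyl cycle, by -0.86 (adjusted p = 0.00199), and Crygn, a crystallin gene, by 1.09 (adjusted p = 0.00441). In Flpo the same genes stood at -0.47, -0.75 (SE 0.15, adjusted p = 0.0998) and 1.08 (SE 0.21, adjusted p = 0.0998). Flpo minus Cre was 0.11, 0.11 and -0.01 for them (adjusted p = 0.436, 0.686 and 0.976). Crygn was low throughout, at 1.05 to 1.69 CPM in GFP and 1.87 to 3.28 in Flpo.

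Other genes near the threshold stood higher in Flpo, and none of them passed. Pdxk, which makes the active form of vitamin B6, stood at 47.3, 44.8, 48.5, 45.9 and 67.9 CPM in GFP and at 62.4 to 95.7 CPM with a median of 82.0 in Flpo (0.69, SE 0.14, adjusted p = 0.0998). Only GFP replicate 5 and Flpo replicate 1 overlapped. Cre differed from GFP the other way, at 24.02 to 40.1 CPM (-0.67, adjusted p = 0.00655). Tfrc, the transferrin receptor, stood at 14.2 to 18.9 CPM in GFP, at 29.1 to 42.3 in 5 Flpo libraries and at 16.01 in Flpo replicate 1 (0.91, SE 0.20, adjusted p = 0.145). Cers6, a ceramide synthase, stood at 9.59 to 13.6 and 15.7 to 27.2 CPM without overlap (0.83, SE 0.18, adjusted p = 0.145), and Lrp4, a receptor of the LDL receptor family, at 18.4 to 22.7 and 24.3 to 34.2 CPM without overlap (0.56, SE 0.12, adjusted p = 0.145). Rapgef4, which responds to cyclic AMP as an exchange factor of small GTPases, stood at 68.2 to 77.8 CPM in GFP, 87.4 to 109 in Flpo and 136 to 227 in Cre (Flpo minus GFP 0.45, SE 0.11, adjusted p = 0.232).

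Some genes near the threshold passed when 1 library was left out. Without GFP replicate 5, the calls added in edgeR included Slc35f2, Pdxk and Sco2 (adjusted p = 0.0138 each), and Top1mt and Orai3 (0.0384 each). Without Flpo replicate 1, they included Tfrc (0.0103), Pdxk (0.0335), Lrp4 (0.0423) and Top1mt (0.0463), and without Cre replicate 1, Slc35f2 and Ggct (0.0393 each).

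The gene lists used to locate the difference held 719 tested genes in 35 lists. Of these genes 3 were called (Rec8, Smarcd1 and Pde9a), and the lists that hold them were drawn up with these calls known. At an unadjusted p under 0.05 there were 90 (12.5%), beside 9.73% of all genes. With 0.0288% of all genes called in edgeR's test, no call is the usual outcome for lists this short. The other 32 lists had no called member in that test. In the alternative fits members were called in 2 of these, at most 1 in periportal genes and at most 4 in transcripts of blood, pancreas and fat. The median log2 fold change lay within 0.1 of 0 in 22 lists, and the median over all genes was -0.01. The medians farthest from 0 were 0.39 for the clock and -0.91 for transcripts of blood, pancreas and fat. The latter list had 7 tested members, 4 of them globin genes.

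**Figure D3:**
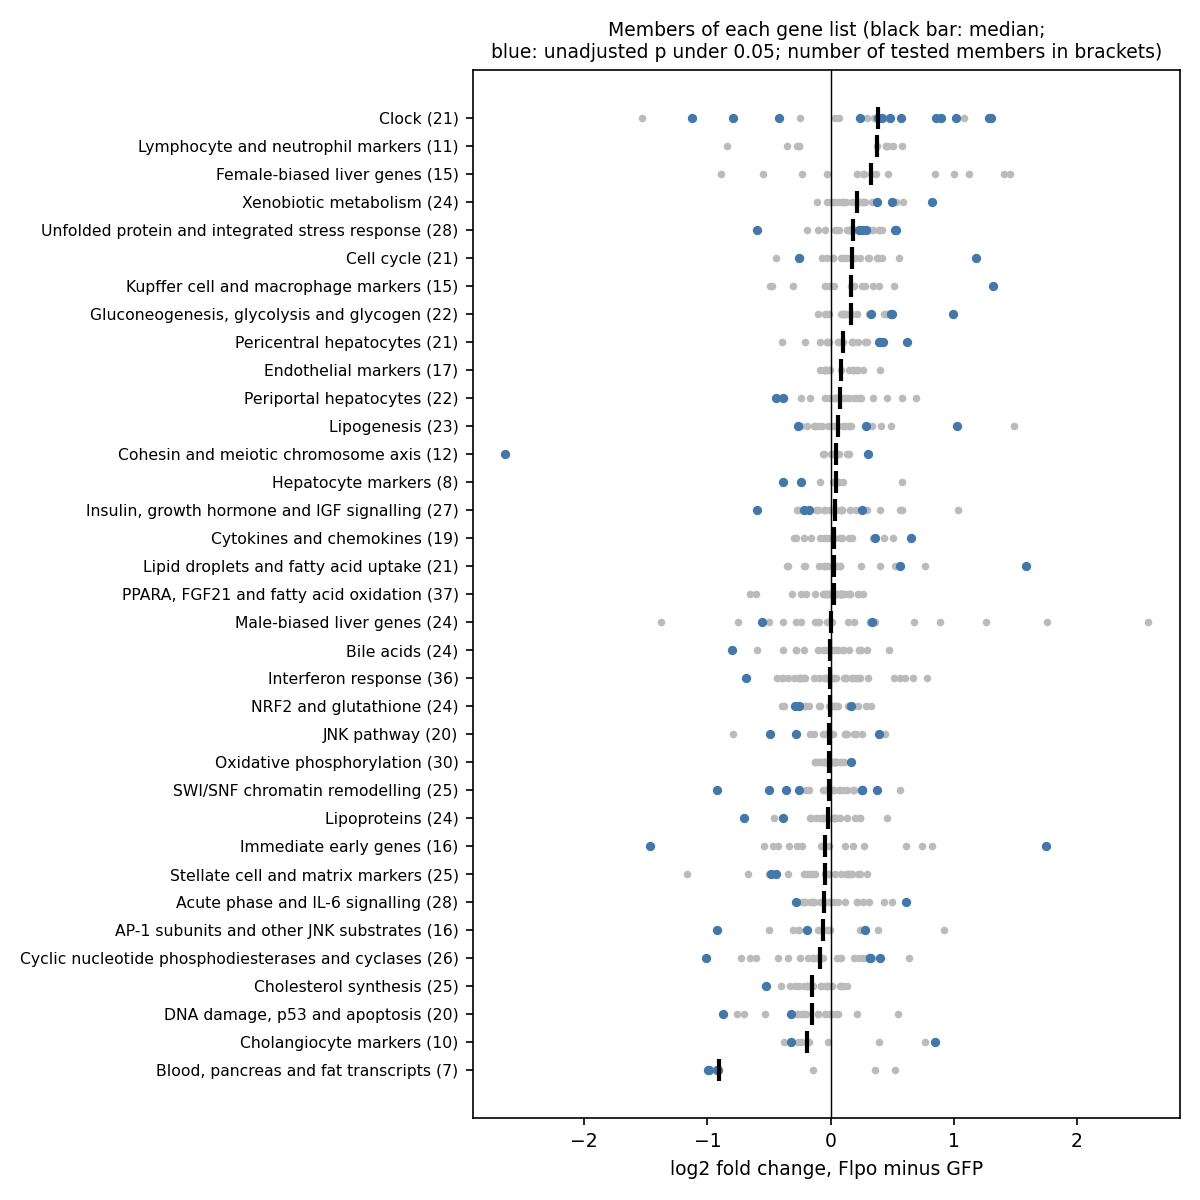
Log2 fold change, Flpo minus GFP, of the tested members of each of the 35 lists, ordered by their median (black bar), with the number of tested members in brackets. Blue points have an unadjusted p under 0.05. The clock list at the top has 13 such members of 21, the globin genes stand apart at the bottom near -1, and Rec8 lies far to the left among the cohesin genes.

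The clock list held more members at an unadjusted p under 0.05 than any other list. The circadian clock is a loop in which the activators CLOCK and BMAL1, the latter encoded by Arntl, switch on their own repressors and a layer of output factors over the day. Of 21 tested members, 10 were higher and 3 lower in Flpo at an unadjusted p under 0.05, beside 4.64% and 5.09% of all genes, and 0 were called, in edgeR or in any alternative fit. The 10 fell to 6 without GFP replicate 1, to 5 without GFP replicate 2 and to 2 with the globin level as a covariate. The activator gene Arntl stood at 5.64, 5.32, 2.54, 3.32 and 2.76 CPM in GFP and at 1.004 to 2.26 CPM with a median of 1.98 in Flpo (-1.12, SE 0.34, adjusted p = 0.307). The repressor gene Nr1d1 stood at 119, 113, 103, 67.9 and 38.2 CPM in GFP and at 29.8 to 90.3 CPM with a median of 44.4 in Flpo (-0.79, SE 0.28, adjusted p = 0.404). The groups did not overlap for Arntl and overlapped widely for Nr1d1.

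None of the repressor genes of the period and cryptochrome families passed. Per3 stood at 5.17, 6.52, 8.25, 10.8 and 19.03 CPM in GFP and at 11.4 to 24.4 CPM with a median of 21.04 in Flpo (1.01, SE 0.38, adjusted p = 0.422). Per1 (0.89, SE 0.36), Per2 (1.08, SE 0.53), Cry1 (0.86, SE 0.24) and Cry2 (0.42, SE 0.15) had values in the same direction, with adjusted p from 0.287 to 0.532, and the interval of Per2 held 0. The GFP libraries overlapped Flpo for each of these genes. Among output genes, Tef, a factor of the PAR bZIP family, stood at 84.5 to 169 CPM in GFP and 129 to 202 in Flpo (0.57, SE 0.20, adjusted p = 0.394), while its relative Dbp differed little (0.30, SE 0.31, adjusted p = 0.790). Usp2, a deubiquitinase under clock control, stood at 9.14 to 50.8 and 30.2 to 78.1 CPM (1.29, SE 0.51, adjusted p = 0.436). Nr1d2 alone among the members higher in Flpo had no overlap, at 40.0 to 52.0 CPM in GFP and 55.2 to 67.4 in Flpo (0.39, SE 0.12, adjusted p = 0.340).

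**Figure D4:**
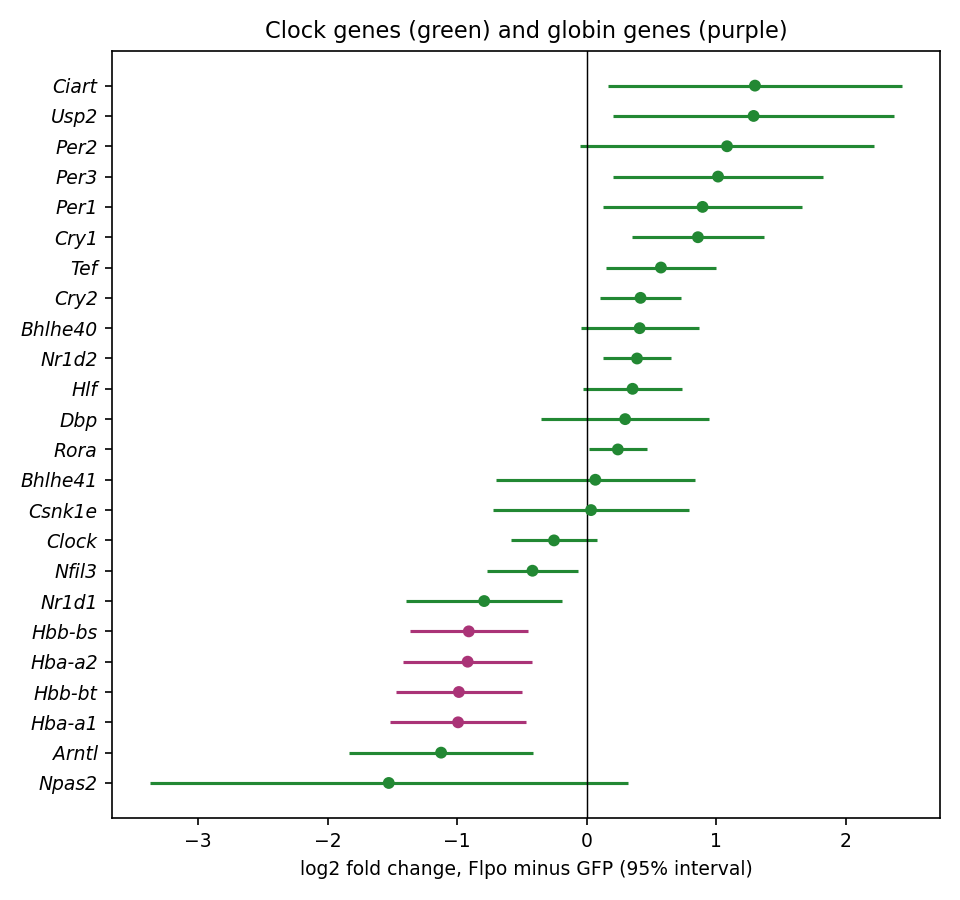
Log2 fold change, Flpo minus GFP, with its 95% interval for 20 of the 21 tested clock genes (green) and the 4 globin genes (purple). Intervals that stay clear of 0 are found on both sides among clock genes and only below 0 among globin genes. None of these genes passed the adjusted test in edgeR.

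A clock score was computed for each library as the mean log2 CPM of Per1, Per2, Per3, Dbp, Tef, Ciart, Usp2 and Nr1d2 minus that of Arntl, Npas2, Clock and Nfil3. The choice was made after the data had been seen. It was 0.55, 0.57, 2.07, 2.70 and 3.41 in GFP replicates 1 to 5 and 2.38 to 4.56 with a median of 3.67 in Flpo. GFP replicates 1 and 2 lay within the range of the Cre libraries (-0.75 to 1.87), and GFP replicates 4 and 5 within that of the Flpo libraries. With the score as a covariate, no gene passed in edgeR, and 599 genes (4.31%) had an unadjusted p under 0.05. The fold changes of the called genes were then -2.24 for Rec8, -0.76 for Pde9a, -0.65 for Smarcd1 and -0.81 for Gm19696, each with an adjusted p of 0.789. Hour of harvest is not given in the sources used here, and the part of the clock in the difference was not tested beyond this covariate, which itself differs between the groups.

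None of the 4 globin transcripts, which red blood cells bring into liver tissue, passed in edgeR, and all 4 had log2 fold changes below 0. With DESeq2, which called 71 genes in all, the 4 passed. Hbb-bs stood at 296, 195, 377, 289 and 470 CPM in GFP and at 123 to 278 CPM with a median of 166 in Flpo (-0.91, SE 0.22, unadjusted p = 0.000590, adjusted p = 0.229). Hbb-bt (-0.99), Hba-a1 (-0.99) and Hba-a2 (-0.92) stood in the same direction, with adjusted p of 0.229, 0.245 and 0.245. Reads of these near-identical pairs may have been split between the copies. Summed over the 4 genes, the level was 740, 466, 910, 722 and 1173 CPM in GFP and 289 to 692 CPM with a median of 399 in Flpo. GFP replicate 2 lay within the Flpo range and Flpo replicate 1 within the GFP range, and the Cre libraries lay at 421 to 609 CPM.

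Of 14 transcripts chosen to mark blood, pancreas and fat, 7 were tested. The heme synthesis gene Alas2, also a marker of red cells, differed by -0.15, and the pancreatic genes Prss2, Cela2a and Cpa1 and the fat genes Adipoq, Plin1 and Lep were too low to test. The summed level of the list was 2886 to 5723 CPM in GFP and 3286 to 5137 in Flpo. The 4 globin genes made up the smaller part of it, at 466 to 1173 and 289 to 692 CPM, so this sum does not describe blood. In bulk tissue, fewer cells of a type and less RNA per cell cannot be told apart. With the log2 globin level as a covariate, no gene passed in edgeR, 924 (6.64%) had an unadjusted p under 0.05, and Rec8 stood at -2.81 (adjusted p = 0.205), Pde9a at -0.98 (0.361), Smarcd1 at -1.08 (0.205) and Gm19696 at -1.29 (0.205). Without Flpo replicate 1, Hba-a2, Hbb-bs and Hbb-bt passed (adjusted p = 0.0335, 0.0335 and 0.0108). The part of blood in the difference was not tested further.

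**Figure D5:**
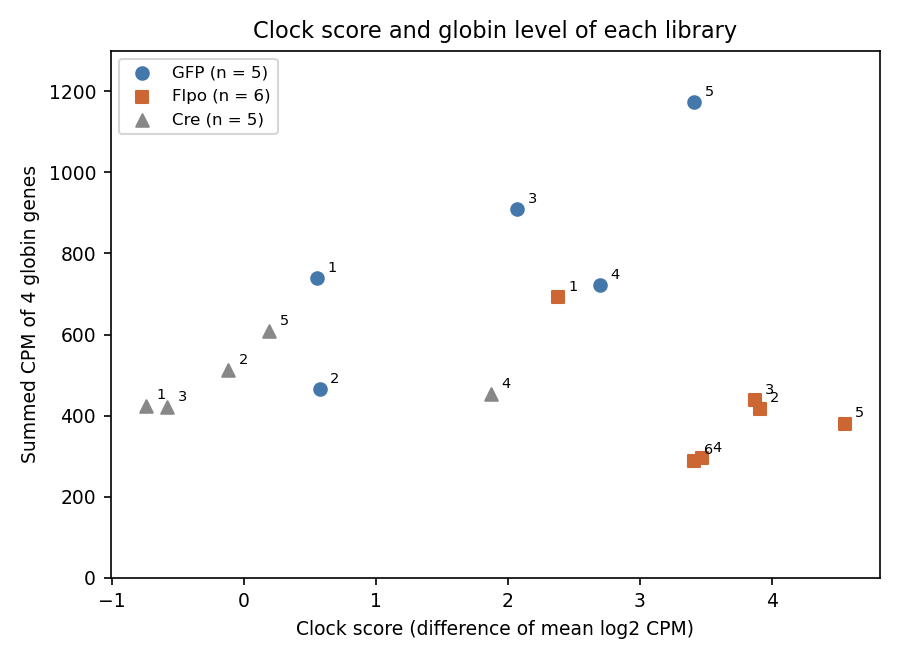
Summed globin CPM against the clock score for the 16 libraries, with replicate numbers. Flpo libraries (orange squares) other than replicate 1 lie at a high clock score and a low globin level, GFP libraries (blue circles) are spread over both axes, and Cre libraries (grey triangles) lie at low clock scores.

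Among the genes of JNK signalling itself, 0 of 20 were called, beside 0.0288% of all genes, and the median log2 fold change was -0.01. At an unadjusted p under 0.05, 1 was higher and 2 lower, beside 4.64% and 5.09% of all genes. Map3k5, which encodes the upstream kinase ASK1, stood at 21.5 to 27.3 CPM in GFP and 25.2 to 34.3 in Flpo (0.39, SE 0.12, adjusted p = 0.312). The scaffold gene Sh3rf1 stood at 2.33 to 2.74 and 1.41 to 2.22 CPM (-0.49, SE 0.19, adjusted p = 0.422), and the upstream kinase gene Map3k10 at 15.9 to 19.4 and 12.02 to 15.4 CPM (-0.28, SE 0.11, adjusted p = 0.424), both without overlap. The kinases that activate JNK directly, Map2k4 and Map2k7, had log2 fold changes of -0.02 and -0.17.

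Targets of JNK gave no called gene. Of 16 AP-1 subunits and other substrates, 0 were called, beside 0.0288% of all genes, and Jun stood at -0.01. Junb stood at 34.8, 43.6, 40.0, 15.7 and 13.2 CPM in GFP and at 13.4 to 18.8 CPM with a median of 14.9 in Flpo (-0.92, SE 0.37, adjusted p = 0.439), so that GFP replicates 4 and 5 lay at the Flpo level. Egr1, an immediate early transcription factor, stood at 11.02 to 29.7 CPM in GFP and 3.37 to 8.58 in Flpo without overlap (-1.47, SE 0.48, adjusted p = 0.357). Nr4a2, an orphan nuclear receptor of the same early class, stood at 0.102 to 0.195 and 0.309 to 0.787 CPM, also without overlap (1.75, SE 0.46, adjusted p = 0.245). Levels this low rest on few counts.

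The programme of PPARA, FGF21 and fatty acid oxidation, which JNK is known to restrain, gave no called gene. In edgeR's test none of its 37 tested genes was called or had an unadjusted p under 0.05, beside 0.0288% and 9.73% of all genes. The median log2 fold change was 0.03, and 33 of the 37 intervals lay within 2-fold. Ppara stood at 79.9 to 108 CPM in GFP and 88.3 to 148 in Flpo (0.22, SE 0.17, adjusted p = 0.695). Cpt1a, which admits fatty acids to mitochondria, stood at 430 to 600.5 and 551 to 715 CPM (0.22, SE 0.12, adjusted p = 0.574). Fgf21 stood at 7.49 to 20.6 and 5.69 to 13.2 CPM (-0.66, SE 0.42, 95% interval -1.56 to 0.25, adjusted p = 0.647), an interval too wide to bound the difference at 2-fold.

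Genes of fat storage held a few high values in Flpo that varied between libraries. Of 21 genes of lipid droplets and fatty acid uptake and 23 of lipogenesis, none was called, beside 0.0288% of all genes. The medians were 0.03 and 0.06. Cidea, which promotes fusion of lipid droplets, stood at 7.51, 15.3, 7.97, 7.10 and 10.4 CPM in GFP and at 5.14 to 64.9 CPM with a median of 26.1 in Flpo (1.59, SE 0.50, adjusted p = 0.340). Flpo replicate 3 lay below every GFP library, and the range within Flpo exceeded the gap between the groups. Plin4, a coat protein of lipid droplets, stood at 38.3 to 74.4 and 59.2 to 92.6 CPM (0.57, SE 0.18, adjusted p = 0.324). Thrsp, a regulator of lipogenesis, stood at 55.9 to 184 and 55.7 to 385 CPM (1.03, SE 0.48, adjusted p = 0.513). The fatty acid transporter gene Cd36 had a log2 fold change of 0.08 (SE 0.25, 95% interval -0.45 to 0.61, adjusted p = 0.942). It turned to -0.03 without GFP replicate 3.

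The same 4 lipid genes passed between Flpo and Cre, where the share of all genes is 13.7%. In the 2 lists they come from, 10 of 21 and 8 of 23 genes passed, not all in this direction. Plin2 and Slc27a2, of the lipid droplet and uptake list, passed as lower in Flpo than in Cre (-0.98, adjusted p = 0.00168, and -0.36, adjusted p = 0.0181). Flpo minus Cre was 5.81 for Cidea (SE 0.66, adjusted p = 6.49e-05) and 3.13 for Plin4 (SE 0.20, adjusted p = 1.04e-07). It was 4.33 for Thrsp (SE 0.56, adjusted p = 0.000188) and 2.79 for Cd36 (SE 0.27, adjusted p = 1.28e-05). All 4 were lower in Cre than in GFP, and there too they passed, beside 9.55% of all genes. Cre minus GFP was -4.22 for Cidea (adjusted p = 0.00107) and -2.56 for Plin4 (1.32e-06). It was -3.31 for Thrsp (0.00181) and -2.72 for Cd36 (2.0e-05).

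In glucose metabolism, 4 of 22 genes had an unadjusted p under 0.05, all higher in Flpo, beside 4.64% of all genes. None was called, beside 0.0288% of all genes, and the median was 0.17. Gys2, the liver glycogen synthase, stood at 111, 110.2, 128, 157 and 123 CPM in GFP and at 142 to 216 CPM with a median of 179 in Flpo (0.50, SE 0.14, adjusted p = 0.274). Pcx, pyruvate carboxylase, stood at 739 to 848 and 900.3 to 1059 CPM without overlap (0.32, SE 0.09, adjusted p = 0.296). Foxo1, a transcription factor that insulin restrains, stood at 0.49 (SE 0.17, adjusted p = 0.397) and Pfkfb3, a regulator of glycolysis, at 0.99 (SE 0.45, adjusted p = 0.506), with overlap in both. Pck1, the enzyme of a committed step of glucose production, stood at 845 to 2367 and 1327 to 2445 CPM (0.46, SE 0.24, adjusted p = 0.555).

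Insulin and growth hormone signalling had 0 of 27 called, beside 0.0288% of all genes. At an unadjusted p under 0.05, 1 member was higher and 3 lower, beside 4.64% and 5.09% of all genes. The insulin receptor gene Insr stood at 69.5 to 109 CPM in GFP and 99.7 to 128 in Flpo (0.26, SE 0.12, adjusted p = 0.497). Stat5b, which carries the growth hormone signal, stood at -0.21 (adjusted p = 0.506), and Grb14, an adaptor that inhibits the insulin receptor, at -0.17 (adjusted p = 0.513). Of 24 male-biased liver genes, which follow the pulses of growth hormone, 0 were called between Flpo and GFP, beside 0.0288% of all genes. Their median was -0.00061. Between Flpo and Cre, where the share of all genes is 13.7%, 19 of the 24 were called. None of 15 female-biased genes was called between Flpo and GFP or had an unadjusted p under 0.05, beside 0.0288% and 9.73% of all genes. Only 2 of their 15 intervals, though, lay within 2-fold.

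Genes of xenobiotic metabolism and of stress responses held more higher than lower values, and none passed. In xenobiotic metabolism 3 of 24 had an unadjusted p under 0.05, all higher, beside 4.64% of all genes. The median was 0.21. Over the alternative fits it ranged from -0.08 to 0.37, with 0 to 9 members at such a p. Por, the reductase that feeds electrons to cytochrome P450 enzymes, stood at 269, 225, 348, 342 and 517 CPM in GFP and at 386 to 786 CPM with a median of 597 in Flpo (0.82, SE 0.31, adjusted p = 0.422). Nr1i2, the pregnane X receptor, stood at 49.4 to 75.9 and 53.9 to 93.4 CPM (0.37, SE 0.13, adjusted p = 0.379). Among 28 stress response genes (unfolded proteins and amino acid supply), 5 were higher and 1 lower at such a p, beside 4.64% and 5.09% of all genes. They included the chaperone genes Dnajb9 (0.52, SE 0.18, adjusted p = 0.386) and Dnajc3 (0.26, SE 0.11, adjusted p = 0.457), the sensor genes Eif2ak3 and Atf6 (0.29 and 0.23), and, as the lower one, the pseudokinase gene Trib3 (-0.60, SE 0.26, adjusted p = 0.466).

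By zone of the liver lobule, genes of hepatocytes around the central vein stood higher in 4 of 21 cases at an unadjusted p under 0.05. The share of all genes was 4.64%, and the median of the list was 0.10. Glul, glutamine synthetase, stood at 938, 875, 1142, 1075 and 1095 CPM in GFP and at 1153 to 1493 CPM with a median of 1368 in Flpo (0.40, SE 0.12, adjusted p = 0.313). The groups did not overlap, though Flpo replicate 5 lay just above GFP replicate 3. The glutamate transporter gene Slc1a2 (0.40), the ammonium transporter gene Rhbg (0.62) and Oat, ornithine aminotransferase (0.43), had overlapping groups and adjusted p of 0.379, 0.472 and 0.506. Of 22 periportal genes, 0 were higher and 2 lower at an unadjusted p under 0.05, beside 4.64% and 5.09% of all genes. Their median was 0.08, beside 0.10 for the genes around the central vein, and whether the 2 lists differ was not tested. The lower ones included Spp2, a secreted phosphoprotein, at 91.3 to 105 CPM in GFP and 65.5 to 87.1 in Flpo (-0.44, SE 0.10, adjusted p = 0.166).

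Markers of cell types gave no called gene. The labelled tissue was checked on 8 hepatocyte markers, all of which were tested and which summed to 84800 to 107800 CPM in GFP and 89230 to 106200 in Flpo. Alb differed by 0.02. The plasma protein genes Apoa1 and Ttr did not pass, with Apoa1 at 7971 to 11020 and 5402 to 7905 CPM (-0.39, SE 0.14, adjusted p = 0.379) and Ttr at 5598 to 6917 and 4461 to 5835 CPM (-0.24, SE 0.09, adjusted p = 0.422). Of 17 endothelial markers and 11 of lymphocytes and neutrophils, 0 had an unadjusted p under 0.05, beside 9.73% of all genes, though no interval of the latter 11 lay within 2-fold. Among 15 Kupffer cell and macrophage markers only the scavenger receptor gene Marco did (1.32, SE 0.47, adjusted p = 0.400), and its level was 2.38 to 5.74 CPM in GFP and 2.89 to 28.2 in Flpo. Of 25 stellate cell and matrix markers, Des and Mmp2 stood lower (-0.44 and -0.49, adjusted p = 0.422 and 0.442), and the collagen gene Col1a1 stood at 11.97 to 28.5 and 8.04 to 31.2 CPM (-0.17, SE 0.31, adjusted p = 0.887). Of 10 cholangiocyte markers, 2 had an unadjusted p under 0.05, beside 9.73% of all genes. They were the epithelial adhesion gene Epcam, at 0.978 ± 0.299 CPM in GFP and 1.77 ± 0.798 in Flpo (0.85, SE 0.36, adjusted p = 0.460), and the keratin gene Krt18 (-0.32, SE 0.13, adjusted p = 0.440), which hepatocytes also express.

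Some large fold changes at low abundance rested on 1 library. Arntl2, a relative of Arntl, had a log2 fold change of 2.61 (adjusted p = 0.422), yet it stood at 9.16 CPM in Flpo replicate 4 and at most 0.587 in the other 10 libraries. Synpo2 (2.45) stood at 10.4 CPM in Flpo replicate 2 and Itgb4 (2.08) at 8.13 CPM in Flpo replicate 6, with the other libraries below 1 CPM. Cacna1a (-2.94) and Tiam1 (-2.32) stood at 10.6 and 10.1 CPM in GFP replicate 5. None of these 5 passed. Npnt, a matrix protein gene, had no such library. It stood at 3.14, 2.73, 1.77, 2.67 and 1.20 CPM in GFP and 0.192 to 0.9499 in Flpo without overlap (-1.99, SE 0.60, adjusted p = 0.307).

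Genes with an unadjusted p under 0.05 were spread over the genome. Of the tested genes, 13831 (99.5%) were placed on GRCm38. Over the 19 autosomes the share at an unadjusted p under 0.05 ranged from 7.2% on chromosome 11, which carries Mapk9, to 12% on chromosome 1. The median log2 fold change of a chromosome lay between -0.03 and 0.07. The 4 called genes lie on chromosomes 14, 15 and 17.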

How the data were processed

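RNA-seq libraries of liver were compared, 6 Flpo and 5 GFP, with groups and replicate numbers read from the titles. Estimated counts per gene (55487 rows, 31.7% of values not whole) and a TPM table were deposited by the authors. The submitters' processing notes name cutadapt, STAR and the mm10 build, with no version. The program behind the counts, its annotation and any use of strand are not given there.

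Counts were rounded, scaled with TMM factors and filtered with filterByExpr (minimum count 10), which left 13905 genes. All 16 libraries entered 1 robust quasi-likelihood fit in edgeR 4.0.16 (R 4.3.3), and every adjusted p is from it unless another tool is named. Standard errors were derived from each gene's F statistic, and 95% intervals from the t distribution. The fit was tested on simulated data. Alternatives used limma 3.58.1, DESeq2 1.42.0 and sva 3.50.0, with a pseudocount of 1 for TPM. Positions come from GENCODE M21 and RefSeq on GRCm38.

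The members, the 35 lists and the rule for named genes were chosen with earlier results of these data known. The rule took Mapk8, Mapk9, called genes, the 12 uncalled genes each way with the smallest p, the 5 with the largest fold change each way at a p under 0.05 (mean CPM of at least 1 for both), and from each list the 2 members with the smallest p and the 2 most abundant. Some genes are not reported here. Genes in the text outside this rule were chosen after their values were seen.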

Additional observations from a re-analysis of the deposited data

Results flagged for a closer look

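Within each group of 5 or 6 libraries, the highest or lowest value of each gene or measure examined per library was marked when its gap to the nearest library, divided by the range of the group, was above Dixon's 95% critical value. This marked 18 of 198 cases (9.09%). Chance marks about 1 in 20 groups of independent values. Here many of the genes were chosen with their values seen, and the globin measures overlap, so these rates are not comparable. GFP replicate 5 accounted for 6 of the marked cases and Flpo replicate 1 for 5.

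GFP replicate 5 was marked as the highest GFP library for 6 genes, though it was also the highest for others that were not marked. Pdxk stood there at 67.9 CPM (44.8 to 48.5 in the other GFP libraries), Foxo1 at 52.5 (31.6 to 36.3), Ddit4, a stress gene that restrains mTOR, at 8.78 (5.05 to 5.39) and the cytochrome P450 gene Cyp2c54 at 158 (81.0 to 102). The neuronal channel gene Cacna1a stood at 10.6 CPM (0.254 to 1.46) and Tiam1, an exchange factor of RAC, at 10.1 (0.0317 to 1.17).

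Flpo replicate 1 was the highest Flpo library for the globin genes Hba-a2 (212 CPM, 84.2 to 124 in the others), Hbb-bs (278, 123 to 178) and Hbb-bt (42.7, 15.5 to 23.1) and for the summed globin level (692 CPM, 289 to 438). It was the lowest for Per3 (11.4 CPM, 19.7 to 24.4).

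Of the remaining cases, Arntl2 stood at 9.16 CPM in Flpo replicate 4, Synpo2 at 10.4 in Flpo replicate 2, Itgb4 at 8.13 in Flpo replicate 6 and Marco at 28.2 in Flpo replicate 3, each the highest of its group. Plin4 was highest at 74.4 CPM in GFP replicate 4. Lowest of their groups were Crygn at 1.87 CPM in Flpo replicate 6 and Nfil3, a clock repressor, at 12.5 in GFP replicate 4.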

How the results depend on the processing

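The count of 4 genes was the same or within 1.5 times with DESeq2-type size factors, library totals, no low-count filter, a CPM filter, log2(TPM + 1) with limma and 1 surrogate variable. On log2(TPM + 1), though, 3 genes were called, of which 2 were among the 4 and 1 was higher in Flpo. The count was 1 with only the 2 groups in the fit, 2 with limma-voom, 24 with voom and sample quality weights, 71 with DESeq2, 12 at an adjusted p under 0.1 and 0 under 0.01 (edgeR, with 1353 genes at an unadjusted p under 0.05). With a library left out it ranged from 0 to 15. With the clock score or the globin level as a covariate, both added after the data were seen, it was 0. The cause of these shifts was not tested. The number of genes with an interval within 2-fold stayed within 1.5 times of 10707 in the fits where it was counted (not DESeq2), from 8777 to 13417, though with no low-count filter its share was 43.02% of 24763 genes. The count between Flpo and Cre moved to 15 with the clock score and to 881 at an adjusted p under 0.01, and ranged from 1454 to 2189 with a library left out.

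With the replicate number as a block, fitted without Flpo replicate 6, 0 genes passed in edgeR and 1153 had an unadjusted p under 0.05. Same-numbered GFP and Flpo libraries correlated by -0.02 to 0.18, and 2 of 5 correlated best with their own number. So few and such weak correlations cannot show whether libraries of the same number share more than that number.

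Directions turned for Mapk9 (-0.037 to 0.29) and Cd36 (-0.032 to 0.18) with a library left out, in both cases below 0 without GFP replicate 3. With the clock score as a covariate Dbp turned to -0.30 and Cd36 to -0.32. With the globin level Arntl2 turned to -0.052, Hba-a1 to 0.027, Hba-a2 to 0.030 and Cd36 to -0.037. The globin covariate is built from the globin genes and the clock score from clock genes, so neither setting bears on the genes it is built from. Depth limits genes under 1 CPM.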

Other observations

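Lists of other liver functions held few genes at an unadjusted p under 0.05, beside 9.73% of all genes, and no called gene in edgeR's test. Of 25 genes of cholesterol synthesis, Insig2, which holds back the activation of sterol genes, was the 1 with such a p, at 213 ± 46.8 CPM (SD, n = 5) in GFP and 148 ± 28.3 (n = 6) in Flpo (log2 fold change -0.53, SE 0.21, adjusted p = 0.440). Of 24 bile acid genes, Nr0b2, a repressor of bile acid synthesis, was the 1 with such a p (-0.80, SE 0.34, adjusted p = 0.470), while Cyp7a1, which sets the rate of that synthesis, stood at 148 ± 62.4 and 205 ± 48.3 CPM (0.47, SE 0.28, adjusted p = 0.610). Of 24 lipoprotein genes, 2 had such a p, Apoa1 and Sort1, both lower. Sort1, a sorting receptor of lipoproteins, stood at 18.99 ± 5.18 and 11.7 ± 5.47 CPM (-0.70, SE 0.29, adjusted p = 0.460).

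In immune and stress lists, the IL-6 receptor gene Il6ra stood at 59.9 ± 22.9 CPM in GFP and 91.4 ± 21.1 in Flpo (0.61, SE 0.24, adjusted p = 0.424), and the adhesion molecule gene Vcam1 at 8.28 ± 1.95 and 13.0 ± 5.32 CPM (0.65, SE 0.25, adjusted p = 0.422). Of 36 interferon response genes, 1 had an unadjusted p under 0.05, the GTPase gene Ifi47, at 25.1 ± 4.35 and 15.6 ± 2.86 CPM (-0.69, SE 0.26, adjusted p = 0.422). Bbc3, which encodes the apoptosis factor PUMA, stood at 8.62 ± 4.12 and 4.70 ± 1.89 CPM (-0.87, SE 0.34, adjusted p = 0.422). The cyclin gene Ccne2 stood at 1.02 ± 0.395 and 2.32 ± 1.23 CPM (1.18, SE 0.37, adjusted p = 0.323). None of these genes passed the test.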
